A study of Mus musculus with 8 samples.

Results

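The genes of proliferation and the cell cycle form a set of 46 genes, chosen by symbol for their known roles in the cycle, and all 46 are among the 45583 gene symbols of the count table. They fall into 17 S phase genes, 23 G2/M genes, 4 G1 genes (3 cyclins D and their kinase) and 2 inhibitors of cyclin-dependent kinases. RNA was sequenced from ovaries of female C57/Bl6 mice, 3 weeks old, in 4 WT libraries (animals 1118, 1119, 1120 and 1121) and 4 GOAT KO libraries (animals 1139, 1140, 1141 and 1146). *Mboat4* encodes GOAT, ghrelin-*O*-acyltransferase, which attaches a fatty acid to the peptide hormone ghrelin. The GOAT KO mice lack the gene in the whole body from conception, and WT and KO were littermates from matings of heterozygous parents, with 1 ovary of each mouse used for RNA. Which litter each mouse came from is not given in the sources used here. The study asked whether loss of acyl ghrelin alters the juvenile ovary, and the set is described here as a marker of dividing cells.

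A dividing cell passes from G1 into S phase when cyclin D and cyclin E kinases release the E2F transcription factors, which switch on the genes of DNA replication. The genes of mitosis are switched on later, in G2, largely through promoters with CCAAT boxes and an element called CHR. In the juvenile ovary most dividing cells are granulosa cells of growing follicles, while the oocytes are arrested in meiosis and keep stores of several of the same transcripts, such as those of *Ccnb1* and *Cdk1*. In RNA from a whole ovary, fewer dividing cells and less of a transcript per cell cannot be told apart.

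Total counts on genes ranged from 16147216 to 19481798 reads per library. *Mboat4* had 1, 1, 1 and 3 reads in the WT libraries and 5, 7, 7 and 8 reads in the GOAT KO libraries (p = 0.0286 by an exact permutation test, two-sided, which is the lowest value possible with 4 against 4 libraries), which goes against the labels on few reads, none of them across one of its splice junctions. The methods of the study include a PCR check for the absence of *Mboat4* in GOAT KO ovaries, which is not analysed here, and these few reads do not by themselves show that labels were exchanged. Groups are written as labelled, and each direction below rests on the labels. GOAT KO 1139 stood apart from the rest of its group on a scaling plot of the libraries, and WT 1120 and WT 1118 each lay away from the other WT libraries. The study left out 1 library of each group, which it did not name. Results are given for all 8 libraries and for the 6 libraries without WT 1120 and GOAT KO 1139, and the counts also for the 6 without WT 1118 and GOAT KO 1139. Ovarian markers were present in every library, with summed levels of 1587 to 1964 CPM (counts scaled to the size of the library by TMM, so that a library sums to about the same total) for 14 oocyte markers and 8944 to 11583 CPM for 13 granulosa cell markers.

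The sequences below show promoter elements known from S phase and G2/M genes, in genes whose values are given library by library further on. They are the 200 bases before the start site of 3 replication genes (*Mcm5*, *Mcm6* and *Cdc6*) and of 3 mitotic genes (*Cdc20*, *Cdk1* and *Kif11*), from RefSeq on build GRCm38.p6, written 5′ to 3′ on the strand of the gene. Capitals mark matches to E2F sites (TTTCCCGC, TTTGGCGC, TTTCGCGC or TTTGCCGC), to CHR (TTTGAA or TTCGAA) and to the CCAAT box (CCAAT), each searched on both strands.
*Mcm5*, chr8:75109309-75109508, plus strand: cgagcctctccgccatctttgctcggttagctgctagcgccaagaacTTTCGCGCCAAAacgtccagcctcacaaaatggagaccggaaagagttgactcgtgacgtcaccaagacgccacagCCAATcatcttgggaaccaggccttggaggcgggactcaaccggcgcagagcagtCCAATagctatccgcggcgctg
*Mcm6*, chr1:128359706-128359905, minus strand: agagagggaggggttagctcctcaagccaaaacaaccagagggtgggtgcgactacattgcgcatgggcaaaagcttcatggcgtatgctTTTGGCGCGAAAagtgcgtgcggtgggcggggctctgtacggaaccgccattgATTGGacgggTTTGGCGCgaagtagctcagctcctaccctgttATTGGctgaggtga
*Cdc6*, chr11:98907951-98908150, plus strand: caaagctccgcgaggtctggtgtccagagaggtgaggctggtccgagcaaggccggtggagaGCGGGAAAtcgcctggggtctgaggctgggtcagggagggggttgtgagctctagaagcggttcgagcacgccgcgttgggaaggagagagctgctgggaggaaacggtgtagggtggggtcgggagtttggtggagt
*Cdc20*, chr4:118437344-118437543, minus strand: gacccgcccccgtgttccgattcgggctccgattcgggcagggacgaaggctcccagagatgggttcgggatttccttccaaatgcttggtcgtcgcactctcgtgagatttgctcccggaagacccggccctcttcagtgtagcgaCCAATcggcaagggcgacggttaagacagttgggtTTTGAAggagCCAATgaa
*Cdk1*, chr10:69352913-69353112, minus strand: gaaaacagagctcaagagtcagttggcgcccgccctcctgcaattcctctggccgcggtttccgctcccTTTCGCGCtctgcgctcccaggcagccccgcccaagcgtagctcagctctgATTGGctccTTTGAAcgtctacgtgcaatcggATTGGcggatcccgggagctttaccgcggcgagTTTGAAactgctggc
*Kif11*, chr19:37376182-37376381, plus strand: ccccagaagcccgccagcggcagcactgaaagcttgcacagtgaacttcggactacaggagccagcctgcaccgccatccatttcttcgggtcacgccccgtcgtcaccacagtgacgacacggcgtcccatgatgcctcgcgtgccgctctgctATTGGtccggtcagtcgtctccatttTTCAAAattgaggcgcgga
In *Mcm5* the capitals at the E2F site are 2 overlapping matches, 1 on each strand, and *Mcm6* holds 3 matches, of which the first and second overlap. In *Cdc20*, *Cdk1* and *Kif11* a CHR match lies close to the start site, with a CCAAT box upstream of it in each. *Cdk1* holds a second CHR match farther upstream and an E2F match.

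A RefSeq window from 250 bases before to 50 bases after the start site was at hand for 37 of the 46 members. An E2F match lay in 6 of 14 S phase genes (*Cdc6*, *Cdk2*, *Cdt1*, *Mcm3*, *Mcm5* and *Mcm6*) and in 2 of 19 G2/M genes (*Cdk1* and *Ncapg*), against 2.60% of all 27025 genes with a window. CHR together with a CCAAT box lay in 14 of 19 G2/M genes and in 1 of 14 S phase genes (*Mcm2*), against 9.65% of all genes. CHR alone, a short element, matched in 21.7% of all windows and the CCAAT box in 41.1%. The CCAAT box also lay in 8 of 14 S phase genes, among them *Mcm5* and *Mcm6*, and 8 of 14 S phase genes held no E2F match. These are matches of letters in a window and not shown to be bound sites.

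Levels per kilobase of transcript allow different genes to be compared, though only roughly. The longest protein-coding transcript of each gene was used, whichever form is expressed. *Cdk4*, the kinase of cyclin D, was the most abundant member by this measure, at 225 ± 13.3 CPM per kb in WT and 221 ± 4.42 in GOAT KO (mean ± SD, n = 4 each). It was followed by *Top2a*, the topoisomerase that untangles replicated chromosomes, at 93.00 ± 7.83 CPM per kb in WT, *Ccnd2*, the cyclin D of granulosa cells, at 77.2 ± 11.5, and *Ccna2*, the cyclin of S phase and G2, at 65.5 ± 3.54. *Top2a* and *Ccnd2* overlapped in their SDs, as did *Ccnd2* and *Ccna2*. The replication helicase gene *Mcm6* was at 60.8 ± 2.26 and the sliding clamp gene *Pcna* at 52.6 ± 2.05 CPM per kb. At the low end stood the inhibitor *Cdkn1a*, at 3.88 ± 1.04, the replication licensing gene *Cdc6*, at 5.18 ± 1.07, and *Ccnd1*, at 5.40 ± 0.300 CPM per kb in WT. *Cdc6* and *Ccnd1* differed by less than the SD of *Cdc6*. Of the 3 cyclins D, *Ccnd2* was above *Ccnd3* (23.9 ± 2.50 CPM per kb), which was above *Ccnd1*, without overlap of the SDs. All 46 members together made up 5067 to 5559 CPM per WT library and 5286 to 5758 CPM per GOAT KO library, so that about 0.541% of the reads on genes came from them.

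**Figure D1:**
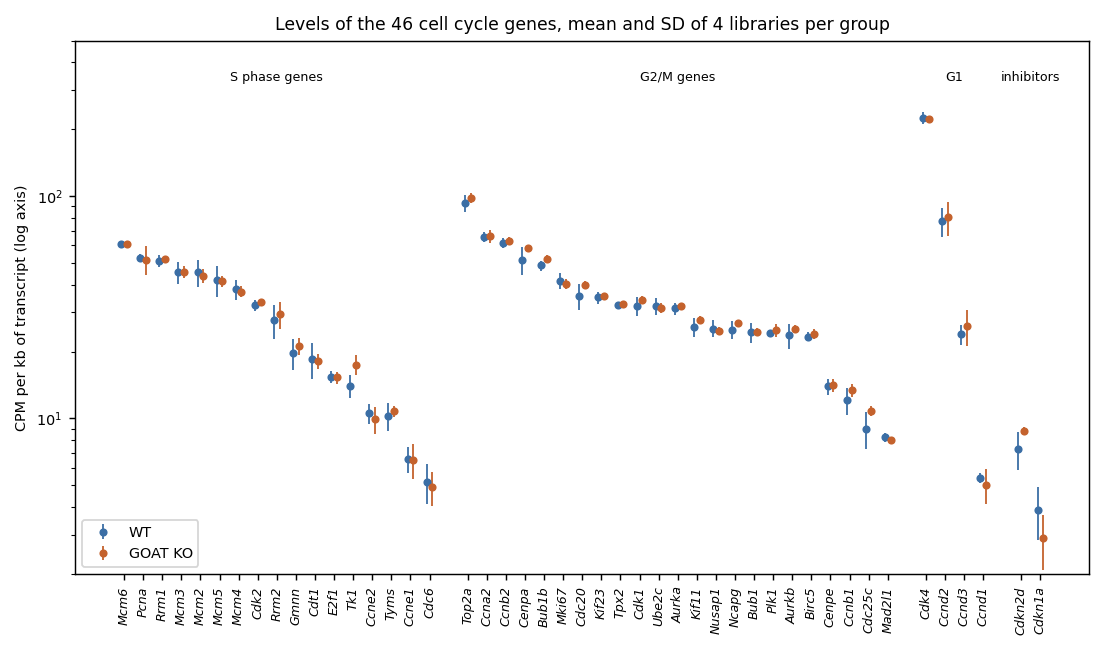
Level of each member in CPM per kb of transcript (log axis), by role and ordered by the WT level within a role, with points for the mean and bars for the SD of 4 libraries per group. Levels ran from 3.88 CPM per kb for *Cdkn1a* to 225 for *Cdk4* in WT.

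The members had their extremes in libraries of both groups. Of the 17 S phase genes, 14 had their highest level in WT 1120 or GOAT KO 1139, one from each group, as did the 4 G1 genes, against 8 of 23 G2/M genes and 32.1% of 16599 genes with reads in every library. Measured against the mean of the 8 libraries, the S phase genes had a median of 0.17 on the log2 scale in WT 1120 and 0.11 in GOAT KO 1139, and between -0.11 and -0.017 in the other 6 libraries. The G2/M genes had a median of -0.049 in WT 1120 and 0.047 in GOAT KO 1139, so that WT 1120 was high for replication genes without being high for mitotic genes. WT 1118 was the lowest library for 20 of the 46 members, against 23.5% of all genes. These patterns lie across the genotypes and were described after the values were seen.

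Single genes show these patterns. *Cdc6*, which loads the replication helicase onto DNA, had 21.3, 21.1, 31.3 and 21.9 CPM in the WT libraries and 28.3, 20.1, 19.6 and 22.4 CPM in the GOAT KO libraries. Its WT 1120 value lay above those of the other 7 libraries, with GOAT KO 1139 next. *Mcm5*, a helicase subunit, had 121, 134, 173 and 138 CPM in the WT libraries and 150.3, 136, 142 and 132 CPM in the GOAT KO libraries, again highest in WT 1120. *Mcm6*, a subunit of the same helicase, had 254, 273, 273 and 258 CPM in the WT libraries and 261, 271, 265 and 260.0 CPM in the GOAT KO libraries, with a narrower spread. *Kif11*, the motor that separates the spindle poles, had 118, 134, 110.3 and 134 CPM in the WT libraries and 132, 138, 128 and 137 CPM in the GOAT KO libraries. WT 1120 was the lowest library for it, and the other 7 spanned both groups. *Cdc20*, the activator of the anaphase-promoting complex, had 50.9, 67.7, 69.3 and 65.97 CPM in the WT libraries and 75.1, 71.2, 68.3 and 71.1 CPM in the GOAT KO libraries, and WT 1118 lay below the rest. These 5 genes were picked for illustration after their values were seen. Steroidogenic markers were highest in the same 2 libraries. The steroidogenic markers, 5 of 6 of which passed the filter on low counts and none of which was at 0 in every library, summed to 3118 CPM in WT 1120, to 3165 CPM in GOAT KO 1139 and to 1967 to 2825 CPM in the others. The 13 granulosa cell markers summed to 11350.4 CPM in WT 1120, to 11583 CPM in GOAT KO 1139, to 8944 CPM in WT 1118, the lowest, and to 9976 to 11526 CPM in the remaining 5. *Cyp19a1*, the aromatase gene, stood at 65.0 and 45.2 CPM in WT 1120 and GOAT KO 1139 and between 5.06 and 31.6 CPM in the others. It was picked for illustration from the 13 granulosa cell markers, whose sum was higher in GOAT KO 1141 (11526 CPM) than in WT 1120. The part of these cells in the levels of the members was not tested.

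**Figure D2:**
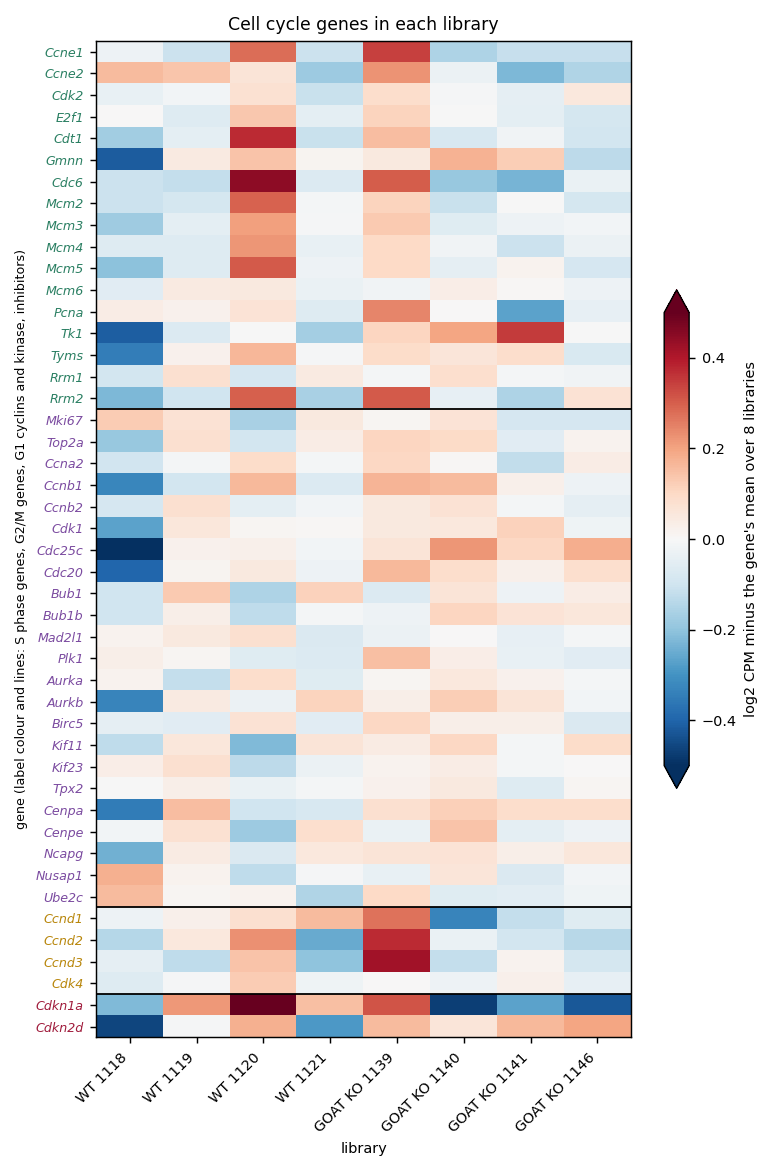
Each member in each library, as log2 CPM minus the mean of that gene over the 8 libraries (colour, cut at -0.5 and 0.5), with lines between the 4 roles in the order named on the axis. Of the 21 S phase and G1 genes, 19 are above their mean in WT 1120 and 19 in GOAT KO 1139, and WT 1118 is low for 20 of 46 members.

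Between the genotypes, none of the 46 cell cycle genes passed the test for a difference. All 46 members passed the filter on low counts, with 80 to 10691 reads per library, and 0 of 46 had an adjusted p under 0.05 in edgeR, while 1, *Tk1*, had an unadjusted p under 0.05 and was higher in GOAT KO. Of the 16601 genes tested, 0.0241% passed at the adjusted threshold and 4.62% at the unadjusted one, 2.49% on the higher and 2.13% on the lower side. DESeq2 and limma-voom also gave 0 of 46 members at the adjusted threshold, against 0.0783% and 0.0241% of all genes, and *Tk1* alone at the unadjusted one, against 4.02% and 4.49%. No member met the main threshold of the study, an unadjusted p under 0.05 and a log2 fold change beyond 0.5 either way. Of all genes 1.67% met it, and it is called the threshold of the study below. For a further pathway analysis the study used a smaller fold change with the same p, which *Tk1* met. The share of all genes past that looser cut-off was not counted. Log2 fold changes of GOAT KO over WT ran from -0.43 for *Cdkn1a* to 0.32 for *Tk1*, with a median of 0.022, against -0.00035 over all genes. The median absolute log2 fold change was 0.047 for the members and 0.077 for all genes. The median SE was 0.075 for the members and 0.11 for all genes, and narrower intervals go with a smaller SE. For 42 of 46 members the 95% interval of the log2 fold change lay inside -0.5 to 0.5, against 71.0% of all genes. The 4 exceptions were *Tk1*, *Cdc25c*, *Cdkn1a* and *Cdkn2d*.

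In the 6 libraries without WT 1120 and GOAT KO 1139, 5 of 46 members had an unadjusted p under 0.05, namely *Tk1*, *Ccnb1*, *Cdc25c* and *Cdkn2d* on the higher side and *Cdkn1a* on the lower side. Of all 16641 genes tested there, 9.46% did, 4.81% on the higher and 4.65% on the lower side, so that 5 of 46 is close to the background. The lowest adjusted p of a member was 0.404, with 0.12% of all genes under 0.05, and again 0 of 46 passed the threshold of the study, against 2.39% of all genes. *Tk1*, *Cdc25c*, *Cdkn2d* and *Cdkn1a* met the looser cut-off of the pathway analysis there, for which the share of all genes was not counted. Log2 fold changes above 0 were found for 29 of 46 members with 8 libraries and for 30 with 6, against 49.9% and 50.3% of all genes. The members are not independent of each other, and this split was not tested. The members called depended on the WT library left out. Without WT 1118 and GOAT KO 1139, 3 of 46 had an unadjusted p under 0.05, against 4.54% of all genes, namely *Tk1* (0.27), *Ccnd1* (-0.25) and *Cdkn1a* (-0.76), with log2 fold changes in parentheses. *Cdkn1a* alone then passed the threshold of the study, against 1.62% of all genes, at an adjusted p of 0.590 in edgeR.

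**Figure D3:**
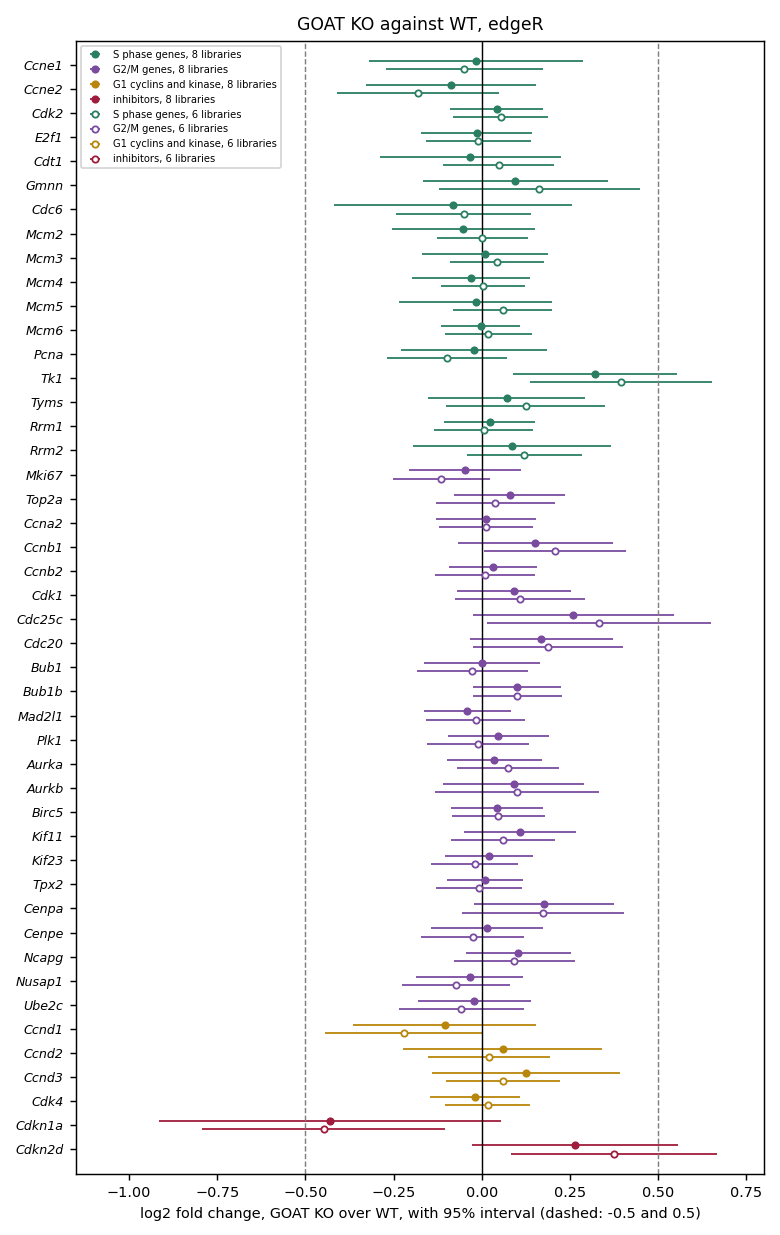
Log2 fold change of each member, GOAT KO over WT, with its 95% interval from edgeR, for 8 libraries (filled) and for 6 libraries (open), coloured by role, with dashed lines at -0.5 and 0.5. With 8 libraries the interval of *Tk1* alone excludes 0, and 42 of 46 intervals lie between the dashed lines.

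**Figure D4:**
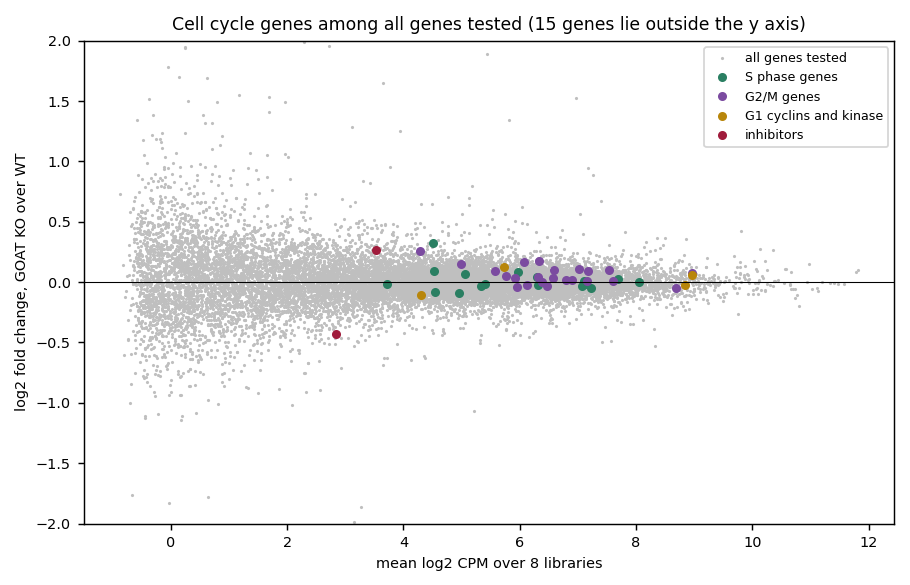
Log2 fold change of GOAT KO over WT against mean log2 CPM for the 16601 genes tested (grey) and the 46 members (coloured by role). The members lie between -0.43 and 0.32, the largest differences being among those of low level.

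Among the S phase genes, *Tk1* stood farthest from 0. It encodes thymidine kinase, which salvages thymidine for DNA synthesis (ENSMUSG00000025574.13, chromosome 11, 117815526 to 117826092, minus strand, GRCm38). *Tk1* had 16.8, 21.4, 22.4 and 19.9 CPM in the WT libraries and 24.1, 25.7, 28.5 and 22.4 CPM in the GOAT KO libraries. WT 1118 was the lowest library and GOAT KO 1141 the highest, and the groups overlapped by a narrow margin between WT 1120 and GOAT KO 1146. The means were 20.1 ± 2.42 CPM (WT) against 25.2 ± 2.61 CPM (GOAT KO; SD, n = 4 libraries each), a 1.25-fold difference. On the log2 scale the difference was 0.32 (SE 0.11, 95% interval 0.088 to 0.56, adjusted p = 0.983) with 8 libraries and 0.40 (SE 0.12, 95% interval 0.14 to 0.65, adjusted p = 0.404) with 6. Leaving out each library in turn gave log2 fold changes of 0.25 to 0.37. The pathway lists of the study hold *Tk1* because of these same libraries, so that its difference here is not independent evidence.

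The genes that open S phase were near 0. *Ccne1*, cyclin E1, had 12.8, 12.1, 15.8 and 12.05 CPM in the WT libraries and 16.5, 11.7, 11.98 and 11.97 CPM in the GOAT KO libraries. Its 2 high values, 1 in each group, were those of WT 1120 and GOAT KO 1139. GOAT KO over WT gave a log2 fold change of -0.016 (SE 0.14, 95% interval -0.32 to 0.29, adjusted p = 0.994) with 8 libraries and -0.049 (95% interval -0.27 to 0.17) with 6. *E2f1*, which encodes an activator of replication genes, had 42.3, 40.5, 46.4 and 40.9 CPM in the WT libraries and 45.7, 42.2, 40.9 and 39.7 CPM in the GOAT KO libraries, and the groups overlapped throughout. By edgeR the log2 fold change came to -0.014 (SE 0.071, 95% interval -0.17 to 0.14, adjusted p = 0.990) with 8 libraries and -0.010 (95% interval -0.16 to 0.14) with 6.

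*Mcm2*, a subunit of the replication helicase, had 139, 141, 184 and 149 CPM in the WT libraries and 162, 139, 149.6 and 141 CPM in the GOAT KO libraries. WT 1120 was highest and GOAT KO 1139 second, with the other 6 libraries between 139 and 149.6 CPM. This amounted to a log2 fold change of -0.052 (SE 0.092, 95% interval -0.26 to 0.15, adjusted p = 0.983) with 8 libraries and 0.0018 (95% interval -0.13 to 0.13) with 6. *Pcna*, the sliding clamp of the replication polymerases and a common marker of proliferation, had 81.03, 80.2, 82.9 and 75.6 CPM in the WT libraries and 93.6, 79.1, 65.5 and 76.8 CPM in the GOAT KO libraries. Both extremes were in GOAT KO, 1139 the highest and 1141 the lowest. The means were 79.9 ± 3.11 CPM (WT) against 78.7 ± 11.5 CPM (GOAT KO; SD, n = 4 libraries each), and the log2 fold change was -0.022 (SE 0.094, 95% interval -0.23 to 0.19, adjusted p = 0.990) with 8 libraries and -0.099 (95% interval -0.27 to 0.072) with 6.

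The other 12 S phase genes encode cyclin E2 and its kinase (*Ccne2*, *Cdk2*), the licensing factor *Cdt1* with its inhibitor geminin (*Gmnn*), *Cdc6*, the helicase subunits *Mcm3* to *Mcm6*, thymidylate synthase (*Tyms*) and the subunits of ribonucleotide reductase (*Rrm1*, *Rrm2*). Their log2 fold changes lay between -0.086 (*Ccne2*) and 0.096 (*Gmnn*), 6 of them above 0, with unadjusted p of 0.439 to 0.966. No interval reached below -0.42 or above 0.37. Among these 12, the highest library was 1.08 (*Mcm6*) to 1.60 (*Cdc6*) times the lowest. With 6 libraries they lay between -0.18 (*Ccne2*) and 0.16 (*Gmnn*), with a lowest unadjusted p of 0.112. Including the named genes, 7 of 17 S phase genes had log2 fold changes above 0 with 8 libraries and 12 of 17 with 6, against 49.9% and 50.3% of all genes.

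Among the G2/M genes, *Mki67*, which encodes the Ki-67 antigen of dividing cells, had 449.6, 434, 369 and 427 CPM in the WT libraries and 414, 433, 389 and 389 CPM in the GOAT KO libraries. WT 1118 was highest and WT 1120 lowest, with every GOAT KO library between them. On the log2 scale the difference was -0.047 (SE 0.072, 95% interval -0.21 to 0.11, adjusted p = 0.983) with 8 libraries and -0.12 (95% interval -0.25 to 0.023) with 6, and single libraries left out gave -0.11 (without WT 1120) to -0.013 (without WT 1118). *Top2a* had 437, 527, 467 and 511 CPM in the WT libraries and 537, 532, 479.6 and 505 CPM in the GOAT KO libraries, lowest in WT 1118 and highest in GOAT KO 1139. GOAT KO over WT gave a log2 fold change of 0.080 (SE 0.071, 95% interval -0.078 to 0.24, adjusted p = 0.983) with 8 libraries and 0.039 (95% interval -0.13 to 0.21) with 6.

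*Ccnb1*, cyclin B1, is the partner of *Cdk1* in the kinase that drives entry into mitosis and the resumption of meiosis in the oocyte (ENSMUSG00000041431.16, chromosome 13, 100778650 to 100786570, minus strand). *Ccnb1* had 25.2, 29.6, 35.3 and 30.1 CPM in the WT libraries and 35.5, 35.2, 32.1 and 31.03 CPM in the GOAT KO libraries. The groups overlapped through WT 1120. By edgeR the log2 fold change came to 0.15 (SE 0.10, 95% interval -0.068 to 0.37, adjusted p = 0.983) with 8 libraries. Without WT 1120 and GOAT KO 1139 it was 0.21 (SE 0.091, 95% interval 0.0078 to 0.41, adjusted p = 0.524), and single libraries left out gave 0.076 (without WT 1118) to 0.24 (without WT 1120). *Cdk1* itself had 119.9, 150.2, 145 and 145 CPM in the WT libraries and 149, 149, 156 and 142 CPM in the GOAT KO libraries, with WT 1118 the lowest library and the other 7 between 142 and 156 CPM. This amounted to a log2 fold change of 0.091 (SE 0.073, 95% interval -0.070 to 0.25, adjusted p = 0.983) with 8 libraries and 0.11 (95% interval -0.074 to 0.29) with 6.

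*Cdc25c* encodes a phosphatase that activates *Cdk1* (ENSMUSG00000044201.10). *Cdc25c* had 12.5, 19.3, 19.4 and 18.9 CPM in the WT libraries and 19.9, 22.2, 20.4 and 21.6 CPM in the GOAT KO libraries. Every GOAT KO library lay above every WT library, the single member for which the 8 libraries did not overlap in either direction, against 1.64% of all genes in this direction and 1.27% in the other. The closest values were those of WT 1120 (19.4 CPM) and GOAT KO 1139 (19.9 CPM), and WT 1118 lay far below. On the log2 scale the difference was 0.26 (SE 0.13, 95% interval -0.026 to 0.55, adjusted p = 0.983) with 8 libraries and 0.33 (SE 0.14, 95% interval 0.016 to 0.65, adjusted p = 0.520) with 6. Without WT 1118 it was 0.13.

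The mitotic kinases were near 0 over gene counts. *Plk1*, polo-like kinase 1, had 55.1, 54.3, 51.8 and 51.5 CPM in the WT libraries and 59.9, 55.3, 52.7 and 51.9 CPM in the GOAT KO libraries, and the groups overlapped. GOAT KO over WT gave a log2 fold change of 0.047 (SE 0.065, 95% interval -0.096 to 0.19, adjusted p = 0.983) with 8 libraries and -0.010 (95% interval -0.16 to 0.14) with 6. *Aurka*, the aurora kinase of the spindle poles, had 61.02, 55.4, 63.9 and 57.7 CPM in the WT libraries and 60.7, 62.5, 61.2 and 59.7 CPM in the GOAT KO libraries, with both its extremes in WT. By edgeR the log2 fold change came to 0.036 (SE 0.061, 95% interval -0.10 to 0.17, adjusted p = 0.983) with 8 libraries and 0.075 (95% interval -0.069 to 0.22) with 6.

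The other 16 G2/M genes encode cyclins A2 and B2 (*Ccna2*, *Ccnb2*), the spindle checkpoint (*Bub1*, *Bub1b*, *Mad2l1*) and its target *Cdc20*, *Ube2c*, which works with the same ubiquitin ligase, the chromosomal passengers *Aurkb* and *Birc5*, spindle motors and binding proteins (*Kif11*, *Kif23*, *Tpx2*, *Nusap1*), centromere proteins (*Cenpa*, *Cenpe*) and condensin (*Ncapg*). Of their log2 fold changes, 13 were above 0, from -0.040 (*Mad2l1*) to 0.18 (*Cenpa*), with unadjusted p of 0.0766 to 0.997. The intervals stayed between -0.19 and 0.37. With 6 libraries the log2 fold changes lay between -0.073 (*Nusap1*) and 0.19 (*Cdc20*), with a lowest unadjusted p of 0.0780. With single libraries left out, 2 of them had an unadjusted p under 0.05 in edgeR. These were *Cenpa* without WT 1119 (0.26, adjusted p = 0.975) and *Cdc20* without WT 1120 (0.21, adjusted p = 0.465). Including the named genes, 19 of 23 G2/M genes had log2 fold changes above 0 with 8 libraries and 14 of 23 with 6. Of all genes 49.9% and 50.3% did, and this split of members that are not independent was not tested. WT 1118 was the lowest library for 9 of the 23 and WT 1120 for 7, against 23.5% and 17.9% of genes with reads in every library.

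Of the G1 genes, *Ccnd2* is the cyclin D that follicle-stimulating hormone raises in granulosa cells. *Ccnd2* had 448, 512, 579 and 415 CPM in the WT libraries and 639.6, 483, 464 and 449 CPM in the GOAT KO libraries. GOAT KO 1139 and WT 1120 were highest and WT 1121 lowest. This amounted to a log2 fold change of 0.059 (SE 0.13, 95% interval -0.22 to 0.34, adjusted p = 0.986) with 8 libraries and 0.022 (95% interval -0.15 to 0.20) with 6. *Ccnd3* had 50.7, 47.8, 57.7 and 45.5 CPM in the WT libraries and 69.9, 48.1, 52.9 and 49.2 CPM in the GOAT KO libraries, with the same 2 libraries highest. On the log2 scale the difference was 0.13 (SE 0.12, 95% interval -0.14 to 0.39, adjusted p = 0.983) with 8 libraries and 0.061 (95% interval -0.10 to 0.22) with 6, and without GOAT KO 1139 alone it was -0.010.

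*Ccnd1* had 19.02, 19.7, 20.5 and 21.6 CPM in the WT libraries and 23.4, 15.4, 17.9 and 18.6 CPM in the GOAT KO libraries. GOAT KO 1139 was the highest library and the other 3 GOAT KO libraries lay below every WT library. GOAT KO over WT gave a log2 fold change of -0.10 (SE 0.12, 95% interval -0.36 to 0.16, adjusted p = 0.983) with 8 libraries and -0.22 (SE 0.10, 95% interval -0.44 to 0.0051, adjusted p = 0.539) with 6, and single libraries left out gave -0.23 (without GOAT KO 1139, adjusted p = 0.970) to -0.021 (without GOAT KO 1140). *Cdk4* had 437, 456, 500.2 and 451 CPM in the WT libraries and 459, 450.0, 465 and 445 CPM in the GOAT KO libraries. WT 1120 stood highest and the other 7 libraries fell between 437 and 465 CPM. By edgeR the log2 fold change came to -0.020 (SE 0.058, 95% interval -0.15 to 0.11, adjusted p = 0.986) with 8 libraries and 0.017 (95% interval -0.10 to 0.14) with 6.

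The inhibitors had the lowest counts of the members, and *Cdkn1a* had the widest interval. *Cdkn1a* encodes p21, which blocks cyclin-dependent kinases and is induced by p53 (ENSMUSG00000023067.14, chromosome 17, 29090976 to 29100727, plus strand). *Cdkn1a* had 5.82, 7.89, 11.03 and 7.52 CPM in the WT libraries and 8.44, 4.89, 5.63 and 5.06 CPM in the GOAT KO libraries, from 80 to 201 reads per library. WT 1120 and GOAT KO 1139 were the highest libraries, and the other GOAT KO libraries lay below every WT library. The means were 8.07 ± 2.17 CPM (WT) against 6.003 ± 1.65 CPM (GOAT KO; SD, n = 4 libraries each). This amounted to a log2 fold change of -0.43 (SE 0.22, 95% interval -0.92 to 0.056, adjusted p = 0.983) with 8 libraries and -0.45 (SE 0.16, 95% interval -0.79 to -0.10, adjusted p = 0.447) with 6. Single libraries left out gave -0.64 (without GOAT KO 1139, adjusted p = 0.887) to -0.25 (without WT 1120, adjusted p = 0.676).

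*Cdkn2d* encodes p19, which blocks *Cdk4* (ENSMUSG00000096472.2, chromosome 9, 21288410 to 21291407, minus strand). *Cdkn2d* had 8.24, 11.3, 12.8 and 9.27 CPM in the WT libraries and 12.6, 11.8, 12.6 and 12.96 CPM in the GOAT KO libraries. The GOAT KO libraries were within 11.8 to 13.0 CPM, while the WT libraries spread from 8.24 to 12.8 CPM and overlapped with them through WT 1120. The means were 10.4 ± 2.04 CPM (WT) against 12.5 ± 0.498 CPM (GOAT KO; SD, n = 4 libraries each). On the log2 scale the difference was 0.27 (SE 0.13, 95% interval -0.028 to 0.56, adjusted p = 0.983) with 8 libraries and 0.38 (SE 0.13, 95% interval 0.084 to 0.67, adjusted p = 0.447) with 6, and single libraries left out gave 0.17 (without WT 1118) to 0.38 (without WT 1120, with an unadjusted p under 0.05). *Cdkn1a* and *Cdkn2d*, like *Tk1*, are in pathway lists that the study drew from these libraries.

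**Figure D5:**
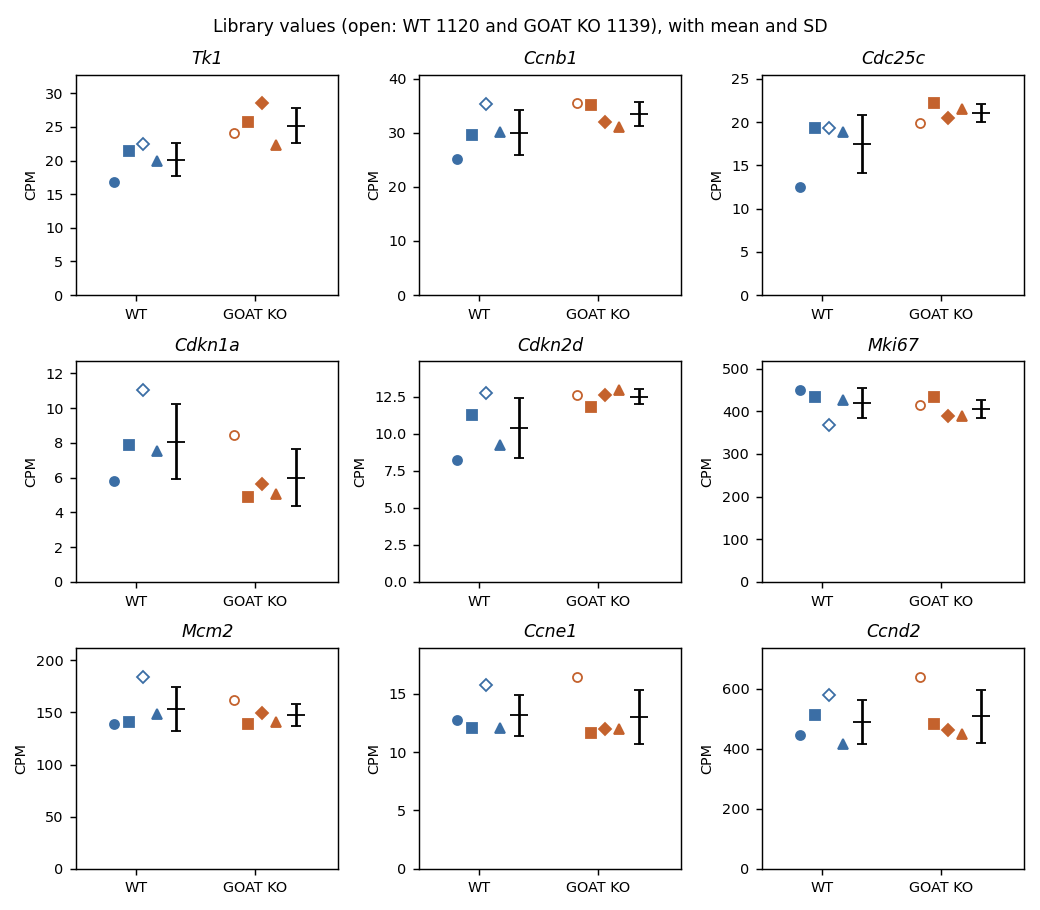
CPM of 9 members in each library, with open symbols for WT 1120 and GOAT KO 1139, and black bars for the mean and SD of each group. *Cdc25c* is the single panel in which the groups do not overlap. The open symbols are the 2 highest values for *Mcm2*, *Ccne1*, *Ccnd2*, *Cdkn1a* and, by a narrow margin, *Ccnb1*.

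In the rest of the pathway too, no gene had an adjusted p under 0.05. Of 115 other cell cycle genes (36 of S phase, 51 of G2/M, 20 regulators of G1 and 8 inhibitors), 114 were tested, and 5 of them, or 4.39%, had an unadjusted p under 0.05 with 8 libraries, near the 4.62% of all genes. These 5, which were named because they are few, were all higher in the libraries labelled GOAT KO, namely *Spc24* (0.18), *Hjurp* (0.18), *Cdk6* (0.16), *E2f7* (0.19) and *Cdkn2c* (0.19), with log2 fold changes in parentheses and an adjusted p of 0.983 each. *Spc24* is part of the kinetochore, *Hjurp* loads the centromeric histone, *Cdk6* is a kinase of cyclin D, *E2f7* is a repressor of the E2F family and *Cdkn2c* is an inhibitor of *Cdk4*. None passed the threshold of the study, and the median log2 fold change of the 114 was 0.039. Without WT 1120 and GOAT KO 1139 none of these 5 kept an unadjusted p under 0.05. There, 3 of 114, or 2.63%, had one, against 9.46% of all genes, 1 higher (*Prim1*, a subunit of primase, 0.24) and 2 lower (*Ckap2l*, -0.15, and *Cdkn1b*, the inhibitor p27, -0.18). Of 15 target genes of p53, 14 were tested, and 2, *Ccng1* (-0.19, adjusted p = 0.983) and *Sesn2* (-0.28, adjusted p = 0.983), had an unadjusted p under 0.05, both on the lower side, where 2.13% of all genes were. With the same 2 libraries left out *Ccng1* alone did. The median of the 14 was -0.068.

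Markers of the cells of the ovary were measured in the same libraries, and their counts stand beside 4.62% of all genes at an unadjusted p under 0.05 with 8 libraries (2.49% higher, 2.13% lower) and 9.46% with 6 (4.81% higher, 4.65% lower). Of 13 granulosa cell markers, 4 had an unadjusted p under 0.05, *Inhba*, *Fshr*, *Hsd17b1* and *Fst*, all higher in the libraries labelled GOAT KO. *Inhba*, the activin subunit, passed the threshold of the study, at a log2 fold change of 0.95 (SE 0.36, adjusted p = 0.983). The summed level of the 13 was 8944 to 11350.4 CPM across the WT libraries and 10773 to 11583 CPM across those of GOAT KO. With 6 libraries 7 of the 13 were higher and 1 lower at an unadjusted p under 0.05, and 4 passed the threshold of the study. Of 14 oocyte markers, 4 had an unadjusted p under 0.05, all higher, and *Sohlh1*, a transcription factor of young oocytes, passed the threshold of the study at 0.87 (SE 0.32, adjusted p = 0.983). With 6 libraries 2 of the 14 were higher. Their sum was 1587 to 1921 CPM for WT and 1664 to 1964 CPM for GOAT KO. For theca and steroidogenic cells the 6 markers summed to 1967 to 3118 CPM for WT and 2493 to 3165 CPM for GOAT KO, and for stroma the 5 markers to 1992 to 2340 CPM and 2295 to 2782 CPM, with 2 of 5 stromal markers higher at an unadjusted p under 0.05 with 8 and with 6 libraries. None of the steroidogenic markers had one with 8 libraries, and 2 were higher with 6. The 8 leukocyte markers summed to 36.6 to 49.9 CPM for WT and 33.9 to 41.1 CPM for GOAT KO, with 1 lower at an unadjusted p under 0.05 with 8 and with 6 libraries. The 6 markers of the surface epithelium summed to 94.6 to 127 CPM and 105 to 130.01 CPM, with 1 lower at an unadjusted p under 0.05 with 8 libraries and 3 with 6, the 5 of endothelium to 249 to 302 CPM and 240.4 to 286 CPM, with 1 lower with 6, the 4 of the oviduct to 4.52 to 11.5 CPM and 6.60 to 14.6 CPM, and the 6 of blood to 146 to 591 CPM and 160.4 to 336 CPM, each in WT and then in GOAT KO. None of these lists held a marker at 0 in every library, and none held a gene with an adjusted p under 0.05. Whether a different share of these cells contributed to the levels of the members was not tested.

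Reads that cross splice junctions give a second count for each gene, free of unspliced copies. Annotated junction reads were 18.2% of the gene counts for the median member and 7.88% for the median gene tested. *Ccnb1* had no such read in any library against 406 to 644 counts per library, *Tk1* had 44 in all 8 libraries (1.38% of its counts), *Pcna* 124 (1.12%), *Cdkn2d* 17 (1.05%), *Ccnd3* 53 (0.716%) and *Cdkn1a* 2 (0.201%). The reads ran from 0 to 51 per library for *Pcna* and from 0 to 28 for *Ccnd3*, whose junctions are not listed in every library. These 6 had too few reads on junctions listed in every library to be tested. Of the 5 members with an unadjusted p under 0.05 in 6 libraries, *Cdc25c* alone could therefore be set beside its junctions. Over junction reads its log2 fold change was 0.18 (SE 0.15), against 0.26 over counts. Some other members lay farther from 0 over junction reads than over counts. Among them were *Ccnd1* (-0.55, SE 0.30), *Mki67* (-0.25, SE 0.13), *Plk1* (0.28, SE 0.15) and *Ccne1* (0.35, SE 0.34). Of the 40 members that could be tested this way, 0 had an unadjusted p under 0.05, against 5.33% of all genes with enough junction reads. Some junctions with many reads are not listed in every library: this held for 43 of 326 junctions of the members with a mean over 15 reads, and 25 of the 43 are not listed in WT 1118, so that the comparison was limited to junctions listed in all 8 libraries.

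Several members share sequence with processed pseudogenes, between which 50 base reads can be split. *Pcna* shares 19.1% of its 50 base words with *Pcna-ps2*, which has 362 to 724 counts of its own against 1280 to 1564 of *Pcna*. *Ccnb1* shares 18.9% with *Ccnb1-ps* and 11.1% with *Gm8416*, for which no counts were at hand, and 13.4% with *Gm12856* (30 to 59 counts). The table also holds *Gm7856* (112 to 236 counts), with 10.3% of *Cdc20*, and *Plk-ps1* (106 to 128 counts), with 6.56% of *Plk1*. Adding the counted pseudogene to the gene moved the log2 ratio of mean CPM from -0.021 to 0.052 for *Pcna*, from 0.15 to 0.17 for *Ccnb1* and from 0.047 to 0.050 for *Plk1*, and left that of *Tk1*, whose copy is *Gm6091*, at 0.32. The levels of *Pcna* and *Ccnb1* are therefore uncertain. Other members overlap genes on the opposite strand, and the use of strand in counting is not given in the sources used here. The overlap took up 23.4% of the exon bases of *Ccnd1* (with *LTO1*), 22.8% of *Ube2c* (with *Tnnc2*), 19.7% of *Cdk4* (with *Tspan31*), 17.4% of *Ccne2* (with *Ints8*), 13.4% of *Ncapg* (with *Lcorl*), 12.7% of *Cdc25c* (with *Gm3550*), 12.5% of *Ccna2* (with *Exosc9*), 7.68% of *Cdkn1a* and at most 7.09% of any other member with a single gene.

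Annotated introns accounted for 99.7% of the junction reads within members. Alternative use of an exon was measured where both forms are annotated, with at least 1 inclusion junction and the skipping junction listed in every library and a mean of at least 10 reads for each, which left 1 exon in each of 2 members. A 144 bp exon of *Cdk2* (chromosome 10, 128699976 to 128700119) was included in 68.0%, 33.3%, 56.8% and 50.0% of informative reads in the WT libraries and in 45%, 51.3%, 46% and 48.9% in the GOAT KO libraries, from 25 to 50 reads per library. These shares rest on the junction on one side of the exon, since the other is not listed in any library, while both sides were used for *Kif23*. The WT libraries enclosed all GOAT KO values, with means of 52.0% ± 14.5 and 47.8% ± 2.86 (SD, n = 4 each; exact permutation test, two-sided, p = 0.6, adjusted over 2 tests p = 0.6). A 312 bp exon of *Kif23* (chromosome 9, 61923905 to 61924216), from 39 to 83 reads per library, was included in 34.1% ± 8.12 in WT and 39.0% ± 3.39 in GOAT KO (SD, n = 4 each; exact permutation test, two-sided, p = 0.314, adjusted over 2 tests p = 0.6). Both groups used both forms, and the differences were smaller than the spread of the WT libraries.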

How the data were processed

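The authors sequenced total RNA (RNA integrity number 10) of 8 ovaries as single reads of 50 bp, aligned them to mm10 (GRCm38) with TopHat2 2.0.14, counted reads on known genes and assembled transcripts with StringTie 1.0.4. They deposited raw counts per gene symbol, without normalization, and counts of reads across each splice junction. The counting tool and its use of strand are not given in the sources used here. The deposited summary of mapped reads and the scores of assembled transcripts were not used.

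Counts were scaled by TMM, filtered by filterByExpr (10 counts, 15 in all) and compared across all genes with the quasi-likelihood test of edgeR 4.0.16 in R 4.3.3, for 8 libraries, with genotype as the single term. P-values were adjusted by Benjamini-Hochberg over all genes tested. Replicates are separate mice. No pair of libraries within a group differed by as little as sampling noise (chi-square per gene 3.96 to 25.0). Alternatives used DESeq2 1.42.0, limma 3.58.1 (voom), RLE or no scaling, no filter, each library left out, WT 1120 and GOAT KO 1139 left out together and, added after seeing the data, WT 1118 and GOAT KO 1139 left out together, and junction reads. The fits were tested on simulated data. Gene positions, transcript lengths (for CPM per kb) and introns are those of GENCODE M21, on GRCm38. The authors guided StringTie with GENCODE M6.

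Values in every library are given for members with an unadjusted p under 0.05 with 8 or 6 libraries and for 17 genes fixed by name. Other members named were chosen after their values were seen. The members, lists and the pair of libraries left out were chosen with earlier results of these data known. The lists beyond the members are other S phase genes, other G2/M genes, other G1 regulators, other inhibitors, targets of p53 and markers of 9 cell types or tissues.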

Additional observations from a re-analysis of the deposited data

Results flagged for a closer look

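With 4 libraries a group, 1 library lay far from the other 3 of its group (a gap to the nearest divided by the range of the group above Dixon's 95% critical value) in 7 of the 92 groups formed by 46 members and 2 genotypes. Chance gives about 5% of groups, and the values describe single libraries. WT 1120 was high for *Cdc6* (gap 0.926 of the range, 31.3 CPM against 21.1 to 21.9 CPM in the other WT libraries), for *Mcm4* (0.908, 157 CPM against 129 to 131 CPM) and for *Birc5* (0.905, 82.9 CPM against 75.9 to 76.6 CPM). WT 1118 was low for *Cdc25c* (0.926, 12.5 CPM against 18.9 to 19.4 CPM). GOAT KO 1139 was high for *Ccne1* (0.936, 16.5 CPM against 11.7 to 11.98 CPM). GOAT KO 1140 was high for *Rrm1* (0.906, 219 CPM against 204 to 205 CPM) and for *Cenpe* (0.894, 122 CPM against 107 to 108 CPM). The cause of these values was not tested.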

How the results depend on the processing

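The number of members with an unadjusted p under 0.05, 1 of 46, was 5 without WT 1120 and GOAT KO 1139, 2 without the filter on low counts and 0 with junction reads, and ranged from 1 to 5 when each library was left out (5 without WT 1120, 3 without GOAT KO 1139). *Tk1* was among them in every fit of gene counts. Members past the threshold of the study ranged from 0 to 1 with a library left out, the 1 being *Cdkn1a* without WT 1118 and again without GOAT KO 1139. Without WT 1118 and GOAT KO 1139, a choice made after seeing the data, 3 members had an unadjusted p under 0.05, 1 passed the threshold of the study, 2 other cell cycle genes had an unadjusted p under 0.05, and *Ccnd2* was at -0.11 and *Ccnd3* at -0.0072. No alternative gave an adjusted p under 0.05 to a member. Among the other cell cycle genes the count of 5 at an unadjusted p under 0.05 was 3 with 6 libraries, 2 without the filter, 3 with DESeq2, 0 with junction reads and 0 to 7 with a library left out. Over all genes, 767 at an unadjusted p under 0.05 became 1574 with 6 libraries, 1219 without the filter and 461 with junction reads, with 557 to 1769 when a library was left out (1769 without WT 1120, 859 without GOAT KO 1139). The 278 past the threshold of the study became 691 without the filter and 166 with junction reads, with 231 to 437 when a library was left out. Genes near 0 changed sign: with 6 libraries *Mcm2* was at 0.0018, *Plk1* at -0.010 and *Cdk4* at 0.017. Without WT 1120 *Ccne1* was at 0.078, *E2f1* at 0.027, *Mcm2* at 0.044 and *Cdk4* at 0.017. With or without a change of sign, leaving out single libraries put *Ccne1* between -0.15 and 0.078, *E2f1* between -0.055 and 0.027, *Pcna* between -0.12 and 0.054, *Top2a* between 0.032 and 0.12, *Cdk1* between 0.023 and 0.12, *Plk1* between 0.0027 and 0.073, *Aurka* between -0.00058 and 0.068, *Mcm2* between -0.098 and 0.044, *Cdk4* between -0.045 and 0.017, *Ccnd2* between -0.070 and 0.15 and *Ccnd3* between -0.010 and 0.19. With junction reads *Ccne1* was at 0.35 (SE 0.34), *Ccnd1* at -0.55 (SE 0.30), *Plk1* at 0.28 (SE 0.15) and *Mki67* at -0.25 (SE 0.13). The causes were not tested. No paired analysis was possible because the groups share no replicate numbers. *Cdkn1a*, at 80 to 201 reads per library, has the fewest reads behind it.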
